A study of Homo sapiens with 6 samples.

Results

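The guanylate-binding protein (GBP) genes GBP1, GBP2, GBP3, GBP4 and GBP5 lie beside each other on chromosome 1, and their 5 rows were taken by gene symbol from the 37887 rows of an RNA-seq count table of BT-549 cells, an established human triple-negative breast cancer (TNBC) line. The 3 control libraries (shCTL) are titled as control shRNA, with a treatment label of DMSO, and the 3 shPBRM1 libraries are titled as PBRM1 shRNA, with a treatment label of doxycycline (DOX). The series design describes a single BT-549 line that carries a tet-inducible PBRM1 shRNA vector in both arms, given 0.1% DMSO as vehicle or 500 ng/ml DOX. Titles and treatments sort the libraries in the same way but disagree on whether the controls carry a control shRNA, so silencing of PBRM1 and exposure to DOX cannot be told apart here. The shRNA sequence used is not named in the labels, and the libraries come from 1 cell line. PBRM1 encodes the polybromo subunit of the PBAF form of the SWI/SNF chromatin remodeling complex, and the comparison asks how transcript levels change when it is silenced.

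GBPs are large GTPases of the dynamin superfamily and are among the genes most strongly induced by IFNs. Their proteins assemble on intracellular bacteria, on the vacuoles of pathogens and on released lipopolysaccharide, where they promote lysis and activation of inflammatory caspases. GBP1, GBP2 and GBP5 end in a CaaX motif that is modified with a lipid and anchors them to membranes, whereas GBP3 and GBP4 lack it. Their promoters are known for the IFN-stimulated response element (ISRE), bound by IRF1 and by complexes that hold STAT2 and IRF9, and for the IFN-gamma-activated site (GAS).

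Sequences around the start sites are shown because these 2 motifs are the known link from IFN signaling to the GBP genes. In the RefSeq promoter table (GRCh38.p14), 3 of the 5 genes were matched by symbol (GBP1, GBP3 and GBP4, but not GBP2 or GBP5). Each sequence runs from 150 bases before the start site to 30 bases from the start on, read 5′ to 3′ along the gene, with motif matches in capitals. The windows on the minus strand are chr1:89022837-89023016 for GBP3, chr1:89065179-89065358 for GBP1 and chr1:89198913-89199092 for GBP4.
GBP3: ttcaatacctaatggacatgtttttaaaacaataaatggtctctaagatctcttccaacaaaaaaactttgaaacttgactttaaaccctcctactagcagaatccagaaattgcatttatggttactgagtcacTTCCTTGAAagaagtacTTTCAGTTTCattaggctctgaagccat
GBP1: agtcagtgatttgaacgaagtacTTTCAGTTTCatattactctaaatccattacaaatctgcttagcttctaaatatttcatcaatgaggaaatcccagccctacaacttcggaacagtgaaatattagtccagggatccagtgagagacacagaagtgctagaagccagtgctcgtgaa
GBP4: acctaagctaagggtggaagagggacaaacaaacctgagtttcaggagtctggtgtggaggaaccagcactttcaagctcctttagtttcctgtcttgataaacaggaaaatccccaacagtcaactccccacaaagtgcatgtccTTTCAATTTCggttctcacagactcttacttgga
The ISRE core searched was GAAA, 2 bases of any kind and then GAAA again, and the GAS was TTCNNNGAA, both on either strand. In the 3 genes the ISRE core was matched on the strand opposite to the gene. Counted from the RefSeq start, it lay from 127 to 118 bases before the start in GBP1. It lay from 4 bases before the start to base 6 after it in GBP4, and from base 3 to base 12 after the start in GBP3. GBP3 also had a GAS match from 15 to 7 bases before its start, which did not overlap the ISRE core. The promoters of the relatives GBP6 and GBP7, searched in the same way, held neither motif. Among the 35116 promoters of the RefSeq table (250 bases before the start and 50 from it on), 3.57% held the ISRE core, 7.66% held the GAS and 0.439% held both. These matches describe letters in a window and were not tied to binding in these libraries.

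In the GENCODE v29 annotation of GRCh38 the 5 genes span 266.1 kb of chromosome 1, from 89006666 to 89272804, all on the minus strand. GBP3 (ENSG00000117226) runs from 89006666 to 89022894 and GBP1 (ENSG00000117228) from 89052319 to 89065360. The GBP1 gene of this annotation covers the whole RefSeq window printed above. Its ISRE match, upstream of the RefSeq start, thus lies inside the GENCODE gene, and its place depends on the annotation. GBP2 (ENSG00000162645) runs from 89106132 to 89150456, and GBP7 overlaps it on the same strand. GBP4 (ENSG00000162654) runs from 89181148 to 89198932 and GBP5 (ENSG00000154451) from 89258950 to 89272804, each with a noncoding gene on the opposite strand. The count table gives 1 number per gene, so exons, introns and UTRs of these genes cannot be told apart in it.

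Reads per library, counted as the total of the table, were between 36429395 and 65096297. At these depths a floor of 3 counts was 0.0471 to 0.0804 CPM, the count scaled to the TMM-normalized size of a library, and this covers counting error only, and every GBP1 to GBP5 count was at least 69. PBRM1 itself had a mean of 158 ± 2.30 CPM in the control group against 41.95 ± 1.22 CPM after silencing (SD, n = 3 each). The edgeR fit gave a log2 change of -1.91 with an adjusted p of 9.98e-23. Its standard error (SE) of 0.027, like the SE of each fold change below, is from the spread of log2 CPM between libraries, not from edgeR. Of the receptor genes that define TNBC by their absence, ESR1 had at most 2 counts and PGR at most 12 counts in any library, while ERBB2 was at 51.3 CPM in shCTL and 50.02 CPM in shPBRM1 cells. The mesenchymal genes VIM, ZEB1, CD44 and AXL stayed within 2-fold of the controls, but FN1 had a log2 fold change of -1.33. The epithelial gene CDH1 was also lower, at 5.002 CPM in shCTL and 1.51 CPM in shPBRM1 cells. EPCAM, the other epithelial gene, was not lower. It had 6, 1 and 0 counts in shCTL and 8, 6 and 4 in shPBRM1 libraries, too few to be tested. Of the 5 leukocyte markers, CD3E was at 0 in every library and LYZ and ITGAM had at most 6 counts. Their summed level was 0.938 to 1.30 CPM in shCTL and 0.800 to 0.899 CPM in shPBRM1 cells. PTPRC was lower (log2 fold change -2.55), with 26, 40 and 44 counts in shCTL and 12, 4 and 6 in shPBRM1 libraries. It passed the filter on low counts through its shCTL libraries. CD14 was higher (0.331 CPM in shCTL and 0.678 CPM in shPBRM1 cells). The part of these marker shifts in the GBP levels was not tested.

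All 5 GBP genes were downregulated in shPBRM1 cells, to between 1.54% and 7.20% of their control level. GBP4 had the deepest decrease and GBP3 the shallowest. A gene was called changed at a fold change above 2 with an adjusted p below 0.05 from edgeR's quasi-likelihood test, adjusted by Benjamini-Hochberg over all 15450 genes tested. Of those genes 9.68% were called lower and 2.87% were called higher, and the 5 GBP genes were 5 of 5 lower. The median log2 fold change of the 5 was -5.27, with a range of -6.02 to -3.79, against -0.0080 over all tested genes. In bulk RNA, fewer cells that express these genes and less GBP RNA per cell cannot be told apart.

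GBP1, the member that first coats bacteria in the cytosol and recruits other GBPs, was the most abundant. Its level was 303, 322 and 327 CPM in shCTL replicates 1, 2 and 3 and 8.63, 8.04 and 7.94 CPM in the shPBRM1 replicates (raw counts of 11319, 15640 and 16499 against 518, 313 and 506). The 3 shPBRM1 libraries sat close together and far under every control. The means were 317 ± 12.5 and 8.204 ± 0.372 CPM (SD, n = 3), which gave a log2 fold change of -5.27 (SE 0.0498, adjusted p = 2.54e-28) or a 38.6-fold lower level.

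GBP2, a lipid-anchored member that joins GBP1 on its targets and also restrains the protease furin, was at 197, 197 and 210 CPM in the shCTL libraries and at 4.71, 3.62 and 5.18 CPM in the shPBRM1 libraries. Replicate 2 was the lowest of the silenced libraries, and GBP2 had the widest relative spread of the 5 genes there. Its log2 fold change was -5.45 (SE 0.156, adjusted p = 1.41e-26), or 43.65-fold lower. Of the 75-base windows of GBP2, 8.78% are also found in GBP7.

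GBP5, the other furin-restraining member and a promoter of inflammasome assembly, stood at 56.6, 52.1 and 55.0 CPM in shCTL libraries. The shPBRM1 libraries had 1.83, 1.77 and 2.20 CPM. The groups did not overlap, and the log2 fold change was -4.80 (SE 0.101, adjusted p = 2.22e-23), or 27.9-fold lower. GBP5 was the lowest of the 5 in the silenced cells by CPM, at 110, 69 and 140 raw counts.

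GBP4, which lacks the lipid anchor and acts with GBP1 in recruiting CASP4 to bacteria, was at 154, 153 and 156 CPM in the controls and at 2.28, 2.49 and 2.385 CPM in shPBRM1 cells. Both groups were tight, with an SD of 1.56 CPM in shCTL and 0.105 CPM in shPBRM1 cells. Its log2 fold change of -6.02 (SE 0.0371, adjusted p = 6.69e-29), or 65.01-fold lower, was the deepest of the 5, and 43 of the 15450 tested genes had a deeper one.

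GBP3, the other member without the anchor, was nearly constant among the controls at 40.5, 40.4 and 40.2 CPM. In shPBRM1 libraries it was at 2.68, 2.775 and 3.26 CPM. Its log2 fold change was -3.79 (SE 0.0862, adjusted p = 1.48e-21), or 13.8-fold lower, which ranked 149 among the decreases of all tested genes. GBP3 therefore retained 7.20% of its control level, against 2.585% for GBP1, 2.24% for GBP2, 1.54% for GBP4 and 3.54% for GBP5.

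**Figure D1:**
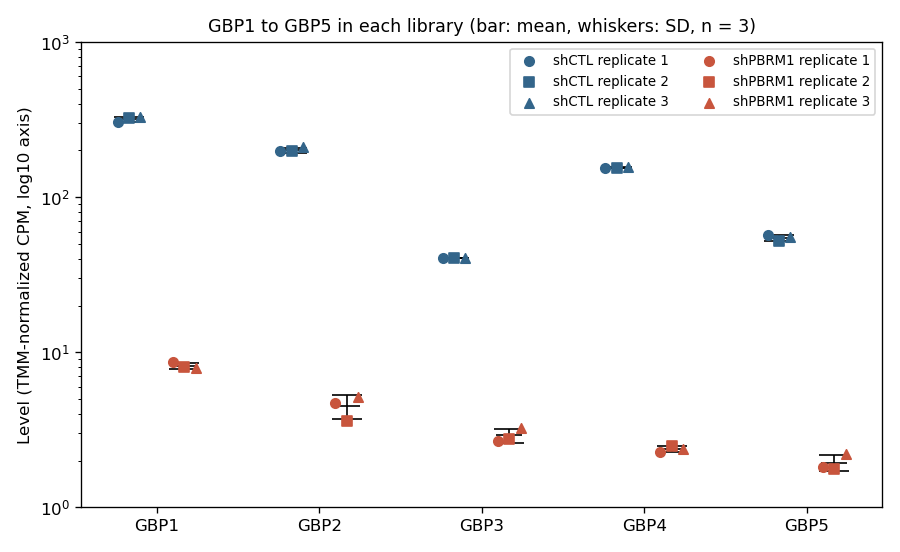
Level of GBP1 to GBP5 in CPM (log10 axis) in each shCTL (blue) and shPBRM1 (red) library, with the mean (bar) and SD (whiskers, n = 3). The lowest control value, 40.2 CPM for GBP3, lies above the highest silenced value, 8.63 CPM for GBP1.

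In the plot of levels by library, the shCTL and shPBRM1 libraries did not overlap for any of the 5 genes. Of all tested genes, 35.0% were lower without overlap between the groups. Summed over the 5 genes, the level was 751, 765 and 788 CPM in shCTL replicates 1, 2 and 3 and 20.1, 18.7 and 21.0 CPM in the shPBRM1 replicates. The 5 genes thus took 0.0770% to 0.0799% of all counts in a control library and 0.00182% to 0.00205% in a silenced library. Per kb of exon, GBP1 stood at percentile 96.5 of the tested genes in shCTL and 38 in shPBRM1 cells. GBP5, at the other end, moved from percentile 64.5 to 14.8.

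**Figure D2:**
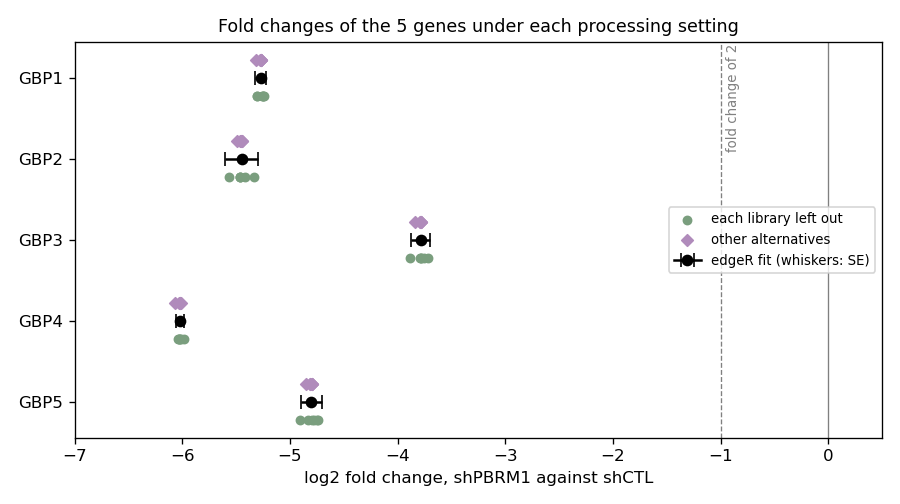
Log2 fold change of each gene, shPBRM1 against shCTL, from edgeR (black). Whiskers are the SE from the spread of log2 CPM between libraries. Fits that leave out each library in turn are green, and the other tools, scalings, filters and the block are purple. The values range from -6.02 for GBP4 to -3.79 for GBP3 in the edgeR fit, and no setting brings any of the 5 near the dashed line at a fold change of 2.

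The plot of fold changes shows that the gaps between the genes are wider than most of their errors. GBP3 and GBP4 differed most. The log2 ratio of GBP3 to GBP4 was -1.92, -1.92 and -1.96 in shCTL libraries and 0.23, 0.15 and 0.45 in shPBRM1 libraries, so the order of the pair by CPM turned over. The shift of 2.21 (SE 0.0886) on the log2 scale came with an exact two-sided permutation p of 0.1, the smallest that 3 libraries against 3 allow. Of the 10 pairs of members, 9 had ratios that did not overlap between the groups, each with p = 0.1 (exact permutation, 0.111 after Benjamini-Hochberg adjustment over the 10 pairs). The exception was GBP1 and GBP2, whose ratio shifted by 0.22 (SE 0.155, exact permutation p = 0.4, adjusted 0.4) with overlapping libraries. With this permutation test no pair can pass 0.05. The 10 pairs share members and so are not independent. How often the ratios of other gene pairs lack overlap was not counted. The count of 9 of 10 is therefore not shown to be particular to the GBP genes.

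Levels of different genes were compared as CPM per kb of merged exons. In shCTL cells the order was GBP1 (63.6 CPM per kb), GBP2 (32.1), GBP4 (25.2), GBP3 (9.40) and GBP5 (6.70), and no 2 neighbours in that order overlapped between libraries. In shPBRM1 cells it was GBP1 (1.64 CPM per kb), GBP2 (0.718), GBP3 (0.677), GBP4 (0.3895) and GBP5 (0.2375), with overlap between GBP2 and GBP3 only. GBP4 and GBP3 thus exchanged places. With the longest annotated transcript as the length, which was applied to this order only after the data had been seen, GBP5 (11.6) stood just above GBP3 (11.0) in shCTL cells, and GBP5 (0.412) above GBP4 (0.390) in shPBRM1 cells. By this length the shPBRM1 libraries overlapped between GBP5 (0.377 to 0.468) and GBP4 (0.373 to 0.407), whereas GBP2 and GBP3 did not overlap.

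**Figure D3:**
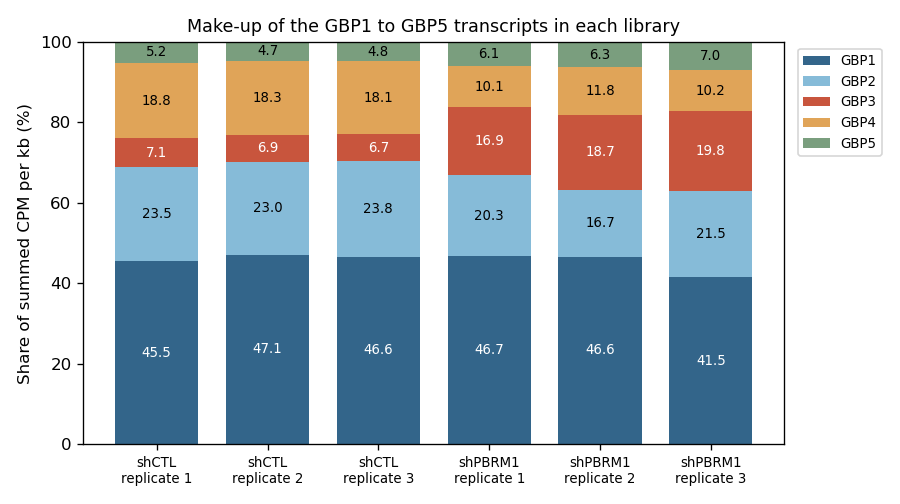
Share of the summed CPM per kb of GBP1 to GBP5 held by each gene (percent, stacked to 100) in each library. The GBP3 share is 6.66% to 7.06% in shCTL and 16.9% to 19.8% in shPBRM1 libraries, while the GBP1 share overlaps between the groups.

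As shares of the summed per-kb level, GBP3 held 6.87 ± 0.198% (SD, n = 3) in shCTL and 18.45 ± 1.49% in shPBRM1 cells. GBP4 held 18.4 ± 0.323% and 10.7 ± 0.956%, and GBP2 held 23.4 ± 0.411% and 19.5 ± 2.51%. The GBP2 difference of -3.91 percentage points was -2.50 without shPBRM1 replicate 2, and the GBP4 difference of -7.76 was -5.10 with the longest transcript as length. The GBP5 share was 4.90 ± 0.275% and 6.47 ± 0.502%. For these 4 genes the libraries of the groups did not overlap (exact two-sided permutation p = 0.1 each, the smallest possible, 0.125 adjusted over 5). GBP1 kept the largest share, 46.4 ± 0.859% and 44.9 ± 2.98%, and its difference of -1.49 percentage points (exact permutation p = 0.6, adjusted 0.6) changed sign to 0.228 without shPBRM1 replicate 3 and was -2.38 without replicate 1 and -2.32 without replicate 2. By share, the transcripts that remained in shPBRM1 cells were richer in GBP3 and poorer in GBP4 than those of the controls. The 5 shares are tied to each other and follow from the levels and fold changes above, so they are not a separate result.

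Of the closest relatives, the pseudogene GBP1P1, which resembles GBP1, had 270, 402 and 385 counts in shCTL and 2, 0 and 4 in shPBRM1 libraries. Its log2 fold change was -7.62 (SE 0.401, adjusted p = 2.39e-17), and its summed shPBRM1 counts left 0.476% of the control level (95% exact counting interval 0.174% to 1.04%). GBP7 had 26, 9 and 28 counts against 2, 2 and 2, under the filter on low counts, or 7.98% of control (2.82% to 18.4%, exact counting interval). Both intervals pool the libraries of a group and cover counting error only, so the spread between libraries is left out. GBP6 had 2, 0 and 10 counts in shCTL and none in shPBRM1 libraries, which is too few for a comparison. How reads shared among these paralogs were assigned is not given in the sources used here. Identical 75-base windows in another gene made up 3.79% of GBP1 (3.22% shared with GBP1P1), 8.94% of GBP2 and 1.25% of GBP3 (1.13% shared with GBP1). They made up 2.31% of GBP4 (1.07% shared with its opposite-strand noncoding gene) and 2.105% of GBP5 (all shared with its opposite-strand noncoding gene). For the low relatives the parts were larger, at 22.4% of GBP7 (all shared with GBP2) and 7.57% of GBP1P1 (6.89% shared with GBP1). Among the 5 members only GBP2 was above GBP1P1. The read length was not known. With the counts of GBP1 to GBP7 and GBP1P1 summed into a single gene, an alternative chosen after the data had been seen, the log2 fold change was -5.27 (adjusted p = 8.19e-28, edgeR).

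**Figure D4:**
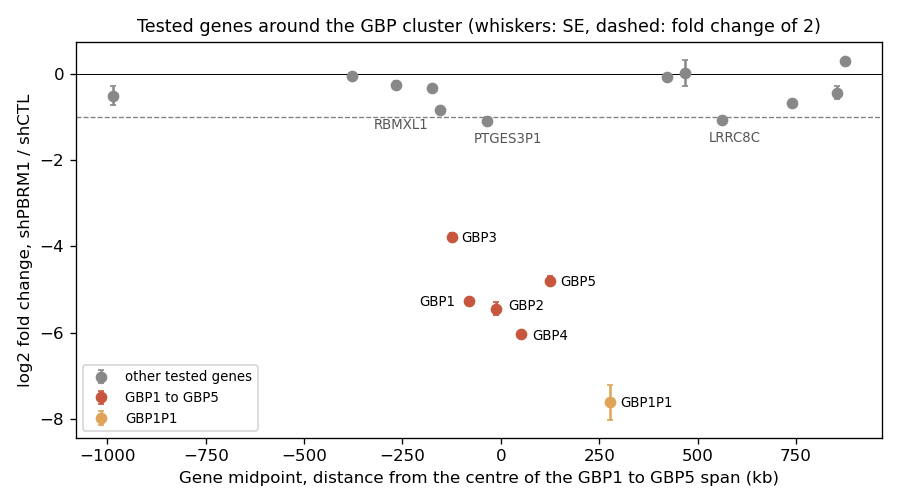
Log2 fold change (whiskers SE) of the tested genes by the distance of their midpoint from the centre of the GBP1 to GBP5 span, in kb. GBP1 to GBP5 (red) and GBP1P1 (orange) lie at -3.79 or lower, whereas no other plotted gene lies under -1.11.

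The map of fold changes by position places the GBP genes among neighbours with smaller changes. Of the 5 nearest tested genes on each side, 1 of 10 was called lower and none higher, near the 9.68% and 2.87% of all tested genes. Their log2 fold changes ran from -1.07 to 0.01. By adjusted p alone 5 of the 10 were lower and 0 higher, where 33.2% of all tested genes were lower and 31.5% were higher by that rule. LRRC8C, a subunit of volume-regulated anion channels that lies 360.3 kb from the cluster, was the neighbour called lower, at -1.07. RBMXL1, an RNA-binding protein gene 13.7 kb from the end of GBP3, was at -0.85. Inside the span, between GBP1 and GBP2, the pseudogene PTGES3P1, named after its values were seen, had 146, 160 and 196 counts in shCTL and 103, 62 and 115 in shPBRM1 libraries (log2 fold change -1.11, adjusted p = 7.83e-07). Thus PTGES3P1, inside the span, and LRRC8C, among the 10 neighbours, were the called non-GBP genes, both near the fold change minimum.

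For the genes of the GBP pathway, 5 lists of 55 genes were used, of which 43 were tested. Of these 13 were called lower and none higher, where 9.68% and 2.87% of all tested genes were. The median log2 fold change of the 43 was -0.26. Among the 13, GBP1P1, MX2, CASP1 and APOL3 passed the filter on low counts only through their shCTL libraries, so their direction was fixed by the filter. By adjusted p alone 22 were lower and 10 were higher, against 33.2% and 31.5% of all tested genes, and 11 did not pass.

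In the IFN signaling list, which leads from receptor to GBP promoter, 4 of 16 tested genes were called lower (9.68% of all tested genes) and none higher. They were the transcription factors STAT2 (log2 fold change -2.36), IRF9 (-1.88) and IRF1 (-1.60), and USP18 (-5.37), a brake on the type I IFN receptor. STAT2 was at 131, 134 and 126 CPM in shCTL and at 26.5, 25.5 and 24.3 CPM in shPBRM1 libraries. IRF1 was at 113, 114 and 112 CPM in shCTL and at 38.3, 38.5 and 35.5 CPM in shPBRM1 libraries. By fitted value both decreases were smaller than that of any of the 5 GBP genes. No receptor gene was called in either direction. IFNGR1 was at -0.02 (adjusted p = 0.532, edgeR), and IFNGR2 (0.38), IFNAR1 (0.43) and IFNAR2 (0.69) were higher by less than 2-fold. The kinases JAK1 (-0.29), JAK2 (-0.55) and TYK2 (-0.21) and the repressor IRF2 (-0.65) were lower by less than 2-fold. The brakes SOCS1, SOCS3, PTPN2 and PIAS1 did not pass the test, at -0.26, 0.04, -0.08 and -0.03, and IRF8 had no counts.

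Among relatives and other IFN-inducible GTPases, 4 of 8 tested genes were called lower, against 9.68% of all tested genes, and none higher. Of the 4, GBP1P1 and MX2 passed the filter on low counts through their shCTL libraries. Besides GBP1P1 these were MX1 (-9.35) and MX2 (-9.13), dynamin-like restriction factors of viruses, and RNF213 (-1.99), an IFN-inducible ubiquitin ligase with an ATPase rather than a GTPase core. MX1 was the more abundant, at 1253, 1288 and 1286 CPM in shCTL and 2.43, 2.03 and 1.43 CPM in shPBRM1 libraries. The atlastins, GBP-like GTPases that fuse endoplasmic reticulum membranes, moved by less than 2-fold in both directions (ATL1 -0.34, ATL2 0.30, ATL3 0.57). IRGQ, of the immunity-related GTPase family, was at -0.03 (adjusted p = 0.707, edgeR). IRGM, IRGC and GVINP1 had too few counts to be tested.

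For the enzymes that attach and process the CaaX lipid, 0 of 6 genes were called lower or higher by edgeR at the 2-fold rule. This lipid is carried by GBP1, GBP2 and GBP5. Over all tested genes 9.68% were called lower and 2.87% higher, so 0 of 6 lies near these shares. FNTA, the shared alpha subunit of both prenyltransferases, was lower at -0.51. ICMT (0.77), ZMPSTE24 (0.43), RCE1 (0.38) and PGGT1B (0.15) were higher by less than 2-fold, and FNTB was at 0.02 (adjusted p = 0.887).

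Among genes of the inflammasome and of pyroptosis, downstream of GBPs, 2 of 5 tested genes were called lower (background 9.68%) and none higher, and CASP1 passed the filter on low counts through its shCTL libraries. CASP1 had 312, 385 and 397 counts in shCTL and 16, 6 and 6 in shPBRM1 libraries (log2 fold change -5.53). CASP4, the caspase that GBPs bring to lipopolysaccharide, was at -2.26, or 25.2, 25.8 and 25.2 CPM against 5.56, 4.96 and 5.29 CPM. Its substrate GSDMD, the pore-forming gasdermin, was lower by less than 2-fold (-0.82), and IL1B was higher by less than 2-fold (0.79, adjusted p = 0.0155, edgeR). NLRC4 was at 0.71 (adjusted p = 0.0573), and CASP5, AIM2, NLRP3, PYCARD and IL18 had too few counts to be tested.

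Of the proteins that bind, modify or act with GBPs, 3 of 8 tested genes were called lower, where the share of all tested genes was 9.68%, and none higher. APOL3, which permeabilizes bacteria that GBP1 has coated, was at -4.63, with 320, 383 and 434 counts in shCTL and 25, 6 and 24 in shPBRM1 libraries. RBCK1, a subunit of the linear ubiquitin ligase, was at -1.57, while its partners RNF31 and SHARPIN were at 0.02 and -0.07 and did not pass the test. RNF31 was low, with 26, 32 and 23 counts in shCTL and 37, 26 and 35 in shPBRM1 libraries. LGALS8, a sensor of broken vacuoles, was at -1.47, and its relative LGALS3 was lower at -0.57. PIM1, the kinase that phosphorylates GBP1, was lower at -0.29. FURIN, the protease restrained by GBP2 and GBP5, was at 0.03 (adjusted p = 0.755, edgeR), and SFN had too few counts to be tested. APOL3 also passed the filter on low counts through its shCTL libraries.

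**Figure D5:**
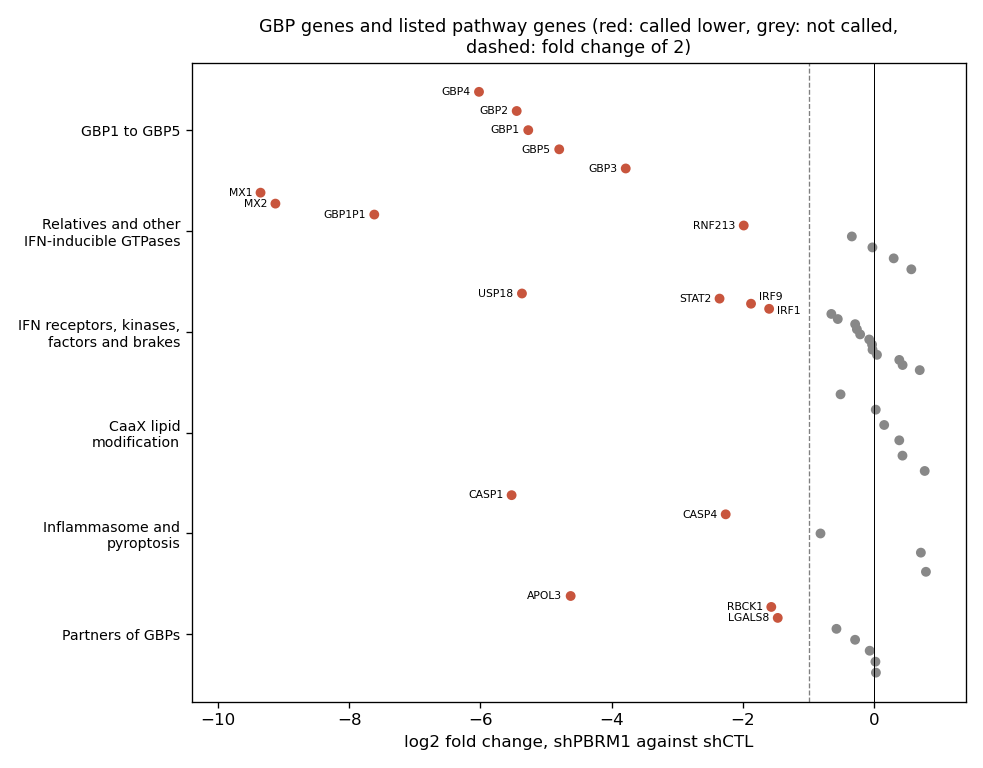
Log2 fold change of GBP1 to GBP5 and of the 43 tested genes of the 5 lists, with genes called lower in red and named, and genes not called in grey. Of the 43 genes 13 were called lower, and MX1, MX2, GBP1P1, USP18, CASP1 and APOL3 reach the range of GBP1 to GBP5 or lie under it. Of these, MX2, GBP1P1, CASP1 and APOL3 passed the filter on low counts only through their shCTL libraries.

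In the plot of the lists, the 5 GBP genes lie at lower fold changes than STAT2, IRF9 and IRF1. Profiles across the 6 libraries were also compared with those of the 11536 genes that averaged 100 counts or more, as the root mean square distance between centred log2 CPM values. The points are 2 groups of 3 libraries, so a small distance mostly means a fold change of like size. The closest to GBP1 were HERC6 (0.103), PARP10 (0.178) and LY6E (0.181), and those to GBP2 were IFIT2 (0.0967), HERC6 (0.102) and SLC15A3 (0.180). GBP4 was closest to IFI6 (0.100), SAMD9 (0.120) and IFIT1 (0.133). GBP5 was closest to APOBEC3F (0.0636), IFIT5 (0.140) and PTGFRN (0.162). GBP3 was closest to NLRC5 (0.0283), with a log2 fold change of -3.76, and then to KIAA1755 (0.0882) and TDRD7 (0.102). Its nearest fellow member, GBP5, was at a distance of 0.508, whereas GBP1 and GBP2 were 0.189 apart.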

How the data were processed

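Libraries were prepared with a stranded mRNA kit from triplicate cultures, and the raw counts that the authors deposited, 1 per gene symbol and library, were not normalized. The submitters' processing notes name CASAVA 1.8.2, STAR 2.7.9a, featureCounts, DESeq2 1.24.0 and the build GRCh38.p7. The annotation, the strand setting and the treatment of multimapping reads are not given in the sources used here. Groups and replicate numbers come from the sample titles. The control columns carry no word for control and were matched because the other columns name shPBRM1, by their last number, and 0 columns were left unused.

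Counts were normalized by TMM, filtered with filterByExpr (15450 genes kept, 12608 of 37887 rows without a count) and tested with edgeR 4.0.16 in R 4.3.3, a quasi-likelihood test without a block. SEs are from the spread of log2 CPM with a prior count of 2. Replicates differed by more than sampling noise (chi-square per degree of freedom 4.92 to 24.9). Separate cultures are not described further, so p-values measure the spread between these libraries. Libraries with the same number in their titles deviated together (r = 0.734, 0.593 and 0.419 across 5622 genes, which are not independent). Different numbers gave -0.671 to 0.464, the highest for shCTL replicate 2 and shPBRM1 replicate 3. Deviations were centred within each group, so these values cannot settle whether the numbers pair the libraries.

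GBP1 to GBP5 and the gene lists were chosen with earlier results of these data known. Named genes are the 5 members, PBRM1, the listed genes, the 5 nearest tested genes on each side and the 3 closest profiles of each member. Lengths and positions are from GENCODE v29, and 98.6% of tested genes had a length. Alternatives were DESeq2 1.42.0, RLE factors, library size only, no filter, the replicate block, omission of each library, a minimum mean of 50 counts, no fold change minimum, glmTreat, a prior count of 0.5 and the longest transcript as length. Tests were first checked on simulated counts. Results for some genes are left out.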

Additional observations from a re-analysis of the deposited data

How the results depend on the processing

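All 5 GBP genes were called lower with DESeq2, each scaling, filter and call rule, the block and each library left out. The prior count and the transcript length do not enter these calls. Leaving out each library in turn gave log2 fold changes of -5.31 to -5.24 for GBP1, -5.56 to -5.34 for GBP2, -3.89 to -3.72 for GBP3, -6.04 to -5.99 for GBP4 and -4.91 to -4.74 for GBP5. Under the replicate block, fold changes on the log2 scale were -5.27, -5.46, -3.79, -6.02 and -4.81 for GBP1 to GBP5, and the block changed no call of a member. With no fold change minimum, 22 listed genes were lower and 10 higher, and over all genes 5137 were lower and 4863 higher. With a mean of at least 50 counts, 12506 genes were tested, and 941 were called lower and 270 higher. The main fit tested 15450 genes and called 1496 lower and 443 higher. Both calls fell by a larger part than the number of genes tested, so the background shares of 9.68% and 2.87% depend on this filter. With glmTreat against a fold change of 2, 913 genes were called lower and 175 higher. The difference in the GBP1 share ranged from -2.38 to 0.228 percentage points when 1 library was left out, and it turned to 0.228 without shPBRM1 replicate 3. The cause was not tested. Scaling by library size alone moved the median of all genes to -0.06, which is under 0.1 on the log2 scale.

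The main limits are 3 libraries a group, a single cell line and groups in which DOX and silencing coincide. Another is an unknown read length and strand setting for genes with paralogs. With 3 libraries a group an exact permutation p stays at 0.1 or above even with any pairing by number ignored, as it was here.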
